A study of Mus musculus with 18 samples.

Results

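Mouse kidney proximal tubule cells in primary culture were compared between day 7 and day 4, that is, between 3 libraries labelled day 7 (replicates A, B and C) and 3 labelled day 4. The libraries were chosen by day from their titles, and make up 6 of the 18 of the series, which also covers days 0, 1, 2 and 14. Both groups came from wild type, 6-week-old female C57BL/6J mice, with no added treatment. Collagenase digestion and a Percoll gradient gave the tubules, which were plated on plastic and never passaged. The labels record neither cell density nor confluence, so the comparison is one of days in culture. The replicates are called biological, but nothing says whether they came from separate animals or dishes, and the p-values therefore reflect spread among these libraries, possibly a technical one.

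The proximal tubule reabsorbs most of the filtered sugar, amino acids, phosphate and protein. In a dish its cells lose much of this programme, spread and divide. Cells that leave the cycle silence the replication and mitosis genes together, through the DREAM repressor complex and the retinoblastoma family, once cyclin-dependent kinase inhibitors hold their kinases back. The interferon, hypoxia, lysosome and retinoid programmes each rest on their own factors: STAT2 and IRF9 for interferon, the oxygen-labile HIF subunits for hypoxia, TFEB and its relatives for lysosomes, and the retinoic acid receptors for vitamin A.

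Totals ran from 23799559 to 32001426 estimated counts per library. Values in counts-per-million (CPM), scaled by TMM, are listed for replicates A, B and C in that order. Day 7 replicate C stood apart: its mean correlation was 0.975 with the day 4 libraries, against 0.957 with day 7 A and B, and 0.948 with day 14. For A and B, the same 3 means were 0.952 and 0.953 with day 4, 0.976 and 0.974 with the other day 7 libraries, and 0.981 and 0.982 with day 14. Chi-square per degree of freedom over the genes counted was 10.3 between day 7 A and B but 153 and 157 between C and each of them, and between 8.01 and 9.32 for day 4 pairs. Counts of called genes and tests of single genes are therefore given with all 3 day 7 libraries and with A and B alone. The share of mitochondrially encoded counts was 0.466% ± 0.03 (SD, n = 3) in the day 4 libraries and 0.807% ± 0.118 (SD, n = 3) in those of day 7 ( two-sided exact permutation p = 0.1, the smallest that 3 against 3 allows).

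With all libraries, 4122 of 18754 genes tested were higher on day 7 (22.0%) and 2985 were lower (15.9%) at an adjusted p under 0.05. With A and B alone, 5387 of 19260 were higher (28.0%) and 4148 lower (21.5%). Of the genes called with all libraries, 96.0% of the higher and 95.3% of the lower were also called without C; these are 73.5% and 68.6% of the calls made without C. In limma on the deposited TPM, 23.2% of genes were higher and 14.1% lower, and 29.7% and 19.9% with A and B alone. With only the libraries of days 4 and 7 in the model, which then takes its spread from these 6 libraries, 1918 genes were higher and 1691 lower. The 3 day 7 libraries all lay above the 3 day 4 libraries for 21.3% of genes tested, and all lay below for 21.3%. For A and B against day 4, these shares were 37.9% and 33.0%.

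Replicate C moved a part of the way. Among the 5387 genes higher without C, replicate C lay above all day 4 libraries for 60.6%, within their range for 19.4% and below it for 20%. For the 4148 lower genes, it lay below for 71.7%, within for 15.7% and above for 12.6%. Its change from day 4 had a median of 29.0% of that of A and B for the higher genes and 36.1% for the lower ones, on the log2 scale.

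The genes that define the labelled cell type were at low levels on both days. Slc34a1, the phosphate cotransporter of the segment, stood at 5.57, 4.32 and 3.13 CPM on day 4 and 0.0902, 0.0708 and 0 on day 7, against a mean of 13753 CPM on day 0. Lrp2, the megalin receptor, had 16.9, 10.5 and 10.2 CPM on day 4 and 5.44, 8.89 and 10.5 on day 7. Hnf4a, a master factor of the segment, had 5.54, 2.6 and 5.18 CPM on day 4 and 2.28, 1.66 and 11.4 on day 7; neither passed the test with all libraries (adjusted p = 0.2 and 0.83). With A and B alone Hnf4a was lower on day 7 (log2 fold change -1.15, adjusted p = 0.04), and Lrp2 had a log2 fold change of -0.82, adjusted p = 0.11. Day 0 means were 495 and 615 CPM. Of 40 proximal tubule genes, 7 were called higher and 7 lower on day 7, shares close to the 22.0% and 15.9% over all genes. The counts with A and B alone were 7 higher and 11 lower, beside 28.0% and 21.5% over all genes.

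Rrm2, Gsta1, Dhrs3 and Igfbp2 show the turn between these days. Rrm2, the small subunit of ribonucleotide reductase (chromosome 12, 24708241 to 24714146, GRCm38), had 742, 717 and 656 CPM on day 4 and 151, 133 and 337 on day 7. It fell in each day 7 library, less in C (log2 fold change -1.77 ± 0.32 SE, adjusted p = 0.00067; A and B alone -2.31, adjusted p = 2.8e-06). Gsta1, an alpha class glutathione transferase (chromosome 9, 78230656 to 78242684), had 271, 267 and 219 CPM on day 4 and 6.85, 8.82 and 31.2 on day 7. All 3 day 7 libraries lay far below day 4, C the least (log2 fold change -4.02 ± 0.43 SE, adjusted p = 1.3e-05; A and B alone -5.01, adjusted p = 5.1e-10). Dhrs3, the reductase that returns retinal to retinol (chromosome 4, 144892827 to 144928209), had 3.32, 3.77 and 4.47 CPM on day 4 and 160.4, 106 and 19.9 on day 7. It rose in each, with C between the groups (log2 fold change 4.63 ± 0.58 SE, adjusted p = 4.5e-05; A and B alone 5.11, adjusted p = 7.8e-09). Igfbp2, a binding protein for insulin-like growth factors (chromosome 1, 72824503 to 72852474), had 1.33, 1.75 and 1.09 CPM on day 4 and 72.4, 71.5 and 7.46 on day 7. C lay above all day 4 libraries but far short of A and B (log2 fold change 5.17 ± 0.66 SE, adjusted p = 4.9e-05; A and B alone 5.68, adjusted p = 3.1e-10). By day 14 its mean reached 635 CPM, and day 14 was higher than day 7 (log2 fold change 3.65, adjusted p = 0.00098; A and B alone on day 7 3.14, adjusted p = 6.4e-07).

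**Figure D1:**
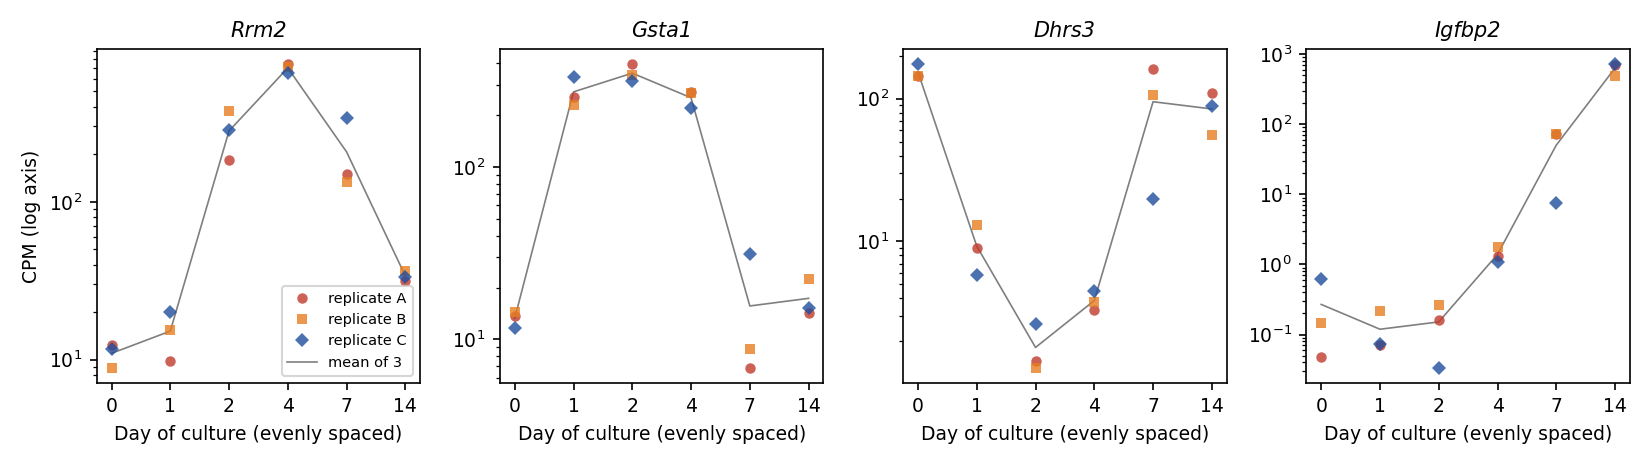
CPM of Rrm2, Gsta1, Dhrs3 and Igfbp2 in each of the 18 libraries (log axis) by day of culture, with symbols for replicates A, B and C and a line through the mean of the 3. On day 7, replicate C lies between day 4 and the other 2 libraries for all 4 genes, and on day 14 it lies with A and B.

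Genes of DNA synthesis and of mitosis were lower on day 7 almost without exception, with A and B close to each other. Of 40 DNA replication genes, 38 were called lower and 0 higher (Gins2 and Ccne1 were not called), with a median log2 fold change of -1.35, against 0.05 for all genes tested (0.03 with A and B alone). With A and B alone all 40 were lower, with a median of -2.24. Of 46 mitosis genes, 45 were lower and 1 higher (median -1.73), and 45 and 1 with A and B alone (median -3.01). Among all genes tested, 15.9% were called lower, and 21.5% with A and B alone. The day 7 libraries all lay below day 4 for 38 replication and 45 mitosis genes, beside 21.3% over all genes. In limma on TPM, 40 and 45 were lower. These calls lean on the spread shared over all days: with only the libraries of days 4 and 7 in the model, 5 replication and 2 mitosis genes were called, and 40 and 45 in the same model without C. Leaving out day 7 A left 25 and 22, and leaving out day 7 B left 27 and 29.

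Loading of the replicative helicase is represented by Cdt1, the licensing factor, with 41.1, 42.5 and 35.6 CPM on day 4 and 9.08, 7.69 and 24 on day 7. Gmnn, the inhibitor that binds Cdt1 once origins have fired, had 39.3, 44.6 and 42.2 CPM on day 4 and 10.4, 11.4 and 23 on day 7. Both sides of licensing fell, and for neither did a day 7 library reach the lowest of day 4 (log2 fold change -1.55 ± 0.29 SE, adjusted p = 0.00084 for Cdt1 and -1.50 ± 0.25 SE, adjusted p = 0.00032 for Gmnn; A and B alone -2.24, adjusted p = 4.2e-09 and -1.95, adjusted p = 2.5e-07). At the fork, Pcna, the sliding clamp of the polymerases, had 171, 175 and 158 CPM on day 4 and 61.8, 60.2 and 133 on day 7. Pold1, the catalytic subunit of polymerase delta, had 80.6, 86.6 and 69.6 CPM on day 4 and 26.3, 26 and 53.3 on day 7. Rfc4, part of the loader that sets the clamp, had 45.1, 50.7 and 42.3 CPM on day 4 and 13.6, 11.7 and 29.9 on day 7. For these fork genes C came nearer to day 4 than to A and B, and all 3 fell (log2 fold change -0.98 ± 0.21 SE, adjusted p = 0.0019, -1.17 ± 0.23 SE, adjusted p = 0.0013 and -1.33 ± 0.25 SE, adjusted p = 0.00072). A and B alone gave -1.46, adjusted p = 9.5e-10, -1.59, adjusted p = 1.1e-06 and -1.86, adjusted p = 1.5e-08. Ccne1, the cyclin that fires S phase, was at 45.3, 45.8 and 42.9 CPM on day 4 and 12.7, 10.5 and 46.6 on day 7: C was level with day 4, while A and B were below it (adjusted p = 0.079; A and B alone -1.94, adjusted p = 1.6e-06).

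Mitosis genes had the lower median. Mki67, the marker of cycling cells that coats mitotic chromosomes, had 135, 116 and 104 CPM on day 4 and 12.9, 9.14 and 70.3 on day 7. A and B were far below day 4 and C less so, and the 3 did not overlap day 4 (log2 fold change -1.95 ± 0.57 SE, adjusted p = 0.013; A and B alone -3.42, adjusted p = 1e-06). Top2a, which untangles sister chromatids, had 221, 216 and 204 CPM on day 4 and 28.3, 27.9 and 150.3 on day 7. Ccnb1, the cyclin of mitotic entry, had 233, 248 and 219 CPM on day 4 and 27.5, 25 and 141 on day 7. In each, C lay nearer to day 4 than to A and B (log2 fold change -1.64 ± 0.50 SE, adjusted p = 0.017 and -1.86 ± 0.53 SE, adjusted p = 0.011; A and B alone -2.93, adjusted p = 3.5e-07 and -3.15, adjusted p = 1.1e-06). The spindle checkpoint gene Mad2l1 had 111, 112 and 107 CPM on day 4 and 17.6, 15.3 and 69.1 on day 7. Anln, the scaffold of the cleavage furrow, had 302, 276 and 282 CPM on day 4 and 44.1, 39.4 and 156 on day 7. Both fell, with C between the groups (log2 fold change -1.69 ± 0.40 SE, adjusted p = 0.0038 and -1.84 ± 0.42 SE, adjusted p = 0.0029; A and B alone -2.73, adjusted p = 1e-08 and -2.78, adjusted p = 4.5e-07). Mybl2, the B-Myb factor that turns on mitotic genes, had 83.9, 101 and 84.1 CPM on day 4 and 8.39, 9.63 and 37 on day 7, and gave the largest fall of the mitosis genes named here with all libraries (log2 fold change -2.29 ± 0.44 SE, adjusted p = 0.001; A and B alone -3.31, adjusted p = 9e-08). Pttg1, the securin that holds back anaphase, ran the other way in A and B, at 23.4, 24.7 and 26.1 CPM on day 4 and 40.5, 37.9 and 24.1 on day 7, with C inside the day 4 range (log2 fold change 0.47 ± 0.14 SE, adjusted p = 0.015; A and B alone 0.66, adjusted p = 4.3e-06).

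**Figure D2:**
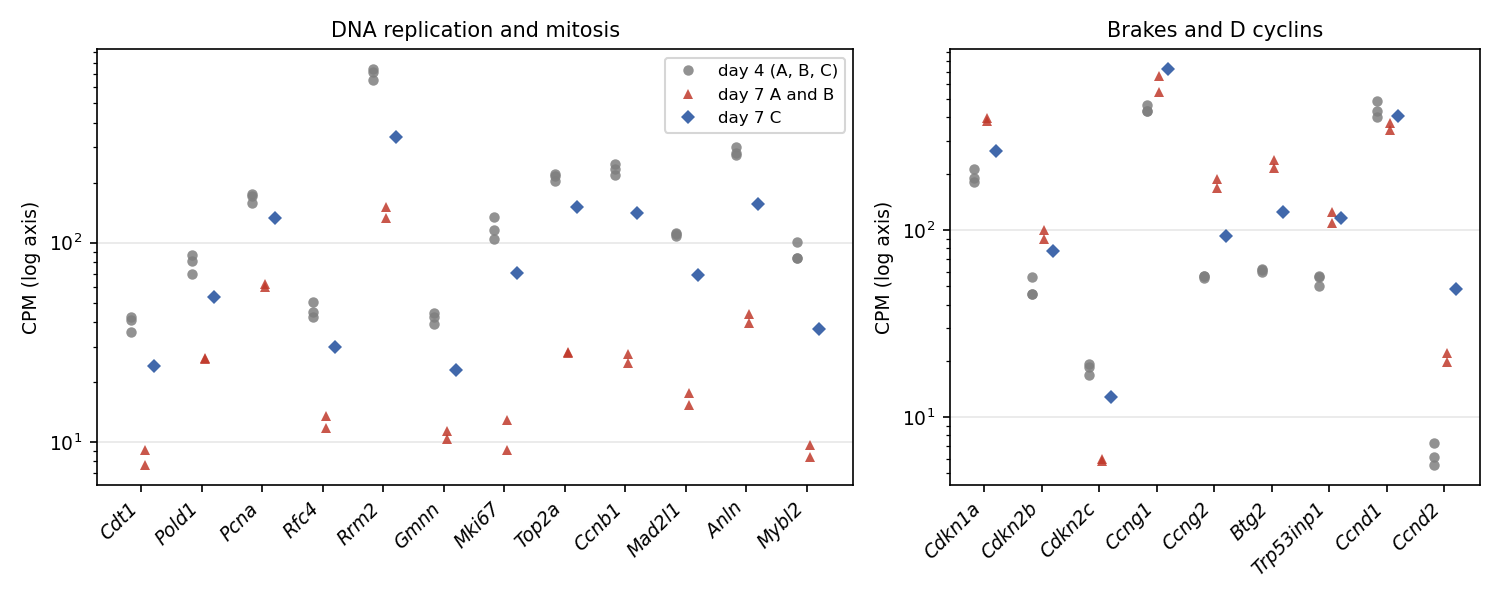
CPM in single libraries (log axis) for division genes on the left and for brakes and D cyclins on the right: day 4 as grey circles, day 7 A and B as red triangles, day 7 C as blue diamonds. The diamonds of the division genes lie between the circles and the triangles, as for Mki67 at 70.3 CPM.

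The promoters of the mitosis genes were searched for the 2 boxes known from genes that DREAM and B-Myb control. Windows of 300 bases (250 before the start to 50 after, RefSeq, GRCm38.p6) were at hand for 38 of 46 mitosis genes. The CHR box (TTTGAA or TTCGAA, either strand) was in 29 of them (76.3%), against 21.7% of all 27025 genes with a window, and the CCAAT box in 27 (71.1%), against 41.1%. Both stood in the same window for 25 genes (65.8%), against 8.61% of all. The E2F letters TTTGGCGC, TTTCGCGC or TTCCCGCC were in 17 of 33 replication genes (51.5%), against 3.39%. A match is a description of the letters and not a bound site. Here and below, the motif shares describe whole lists of known members, whether or not a member changed. The cause of the changes was not tested. The pair printed here are the mitosis genes with the smallest adjusted p among those with both boxes, 5' to 3' with the boxes in capitals: Ect2, the exchange factor of the cleavage furrow, at chr3:27153829-27154128 (minus strand), and Cdca8, the borealin subunit of the chromosomal passenger complex, at chr4:124936868-124937167 (minus strand), where the CHR and the last CCAAT overlap.
Ect2: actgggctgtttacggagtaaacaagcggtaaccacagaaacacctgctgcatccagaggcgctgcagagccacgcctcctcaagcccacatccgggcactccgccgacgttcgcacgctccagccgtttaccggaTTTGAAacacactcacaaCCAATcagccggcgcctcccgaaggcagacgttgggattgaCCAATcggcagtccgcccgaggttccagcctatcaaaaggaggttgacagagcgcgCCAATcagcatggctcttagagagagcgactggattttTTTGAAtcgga
Cdca8: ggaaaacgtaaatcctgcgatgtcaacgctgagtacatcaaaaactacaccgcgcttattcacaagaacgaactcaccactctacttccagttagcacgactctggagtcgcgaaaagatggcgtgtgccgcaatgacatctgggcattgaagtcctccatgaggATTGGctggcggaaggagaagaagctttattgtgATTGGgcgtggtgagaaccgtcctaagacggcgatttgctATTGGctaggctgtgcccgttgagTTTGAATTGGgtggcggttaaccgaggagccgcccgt

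Ect2 had 196, 184 and 189 CPM on day 4 and 33.7, 34.9 and 124 on day 7 (log2 fold change -1.57 ± 0.38 SE, adjusted p = 0.0046; A and B alone -2.47, adjusted p = 1.8e-07), with C again between the groups. For Cdca8 the values were 119, 129.7 and 109 CPM on day 4 and 16.3, 13.3 and 66.1 on day 7 (log2 fold change -1.90 ± 0.47 SE, adjusted p = 0.0054; A and B alone -3.01, adjusted p = 8.1e-07), the same order of libraries.

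Among the brakes of the cycle, 14 of 26 genes were higher and 4 lower with all libraries, beside 22.0% and 15.9% over all genes. The counts with A and B alone were 16 and 4, beside 28.0% and 21.5% over all genes. Cdkn1a, the p21 inhibitor induced by p53, had 190.3, 181 and 213 CPM on day 4 and 384, 398 and 264 on day 7. It rose in all 3 day 7 libraries, C included (log2 fold change 0.84 ± 0.21 SE, adjusted p = 0.0058; A and B alone 1.01, adjusted p = 0.00037). Cdkn2b, the p15 inhibitor of CDK4 and CDK6, had 45.6, 56.3 and 45.8 CPM on day 4 and 99.5, 89.8 and 76.9 on day 7. Cdkn2b changed by 0.85 ± 0.20 SE, adjusted p = 0.0033 on the log2 scale (A and B alone 0.94, adjusted p = 0.00027). Cdkn1b (p27) was not called, with 2.72, 3.15 and 5.0 CPM on day 4 and 4.9, 4.64 and 2.14 on day 7 (adjusted p = 0.84; A and B alone 0.40, adjusted p = 0.31). Cdkn1c (p57) was not called either, with 35.4, 35.8 and 31.7 CPM on day 4 and 42.6, 43 and 35.8 on day 7 (adjusted p = 0.36; A and B alone 0.32, adjusted p = 0.23). Trp53inp1, a p53 target, had 56.6, 50.5 and 55.9 CPM on day 4 and 125, 109 and 116 on day 7. Ccng1, another, had 466, 436 and 434 CPM on day 4 and 666, 546 and 726 on day 7. In these p53 targets C rose as far as A or B (log2 fold change 1.10 ± 0.12 SE, adjusted p = 1.2e-05 and 0.54 ± 0.10 SE, adjusted p = 0.00096; A and B alone 1.11, adjusted p = 1.8e-06 and 0.44, adjusted p = 0.0013). Btg2, an antiproliferative gene, had 59.8, 62.3 and 61.5 CPM on day 4 and 215, 236 and 124 on day 7, and the FOXO-responsive cyclin Ccng2 had 57, 56.8 and 55.3 CPM on day 4 and 187, 168 and 93.1 on day 7; both rose (log2 fold change 1.65 ± 0.21 SE, adjusted p = 4.4e-05 and 1.41 ± 0.18 SE, adjusted p = 5.2e-05; A and B alone 1.88, adjusted p = 9.9e-08 and 1.65, adjusted p = 3.8e-09). The 4 lower genes, a share close to that over all genes, were Cdkn2c, Rbl1, E2f4 and Lin54. The DREAM parts E2f4 and Lin54 were at 111, 116 and 107 CPM on day 4 and 89, 77.9 and 92.5 on day 7 for E2f4 and 44.6, 42 and 40.4 CPM on day 4 and 18.3, 19.6 and 30.3 on day 7 for Lin54 (log2 fold change -0.36 ± 0.07 SE, adjusted p = 0.0015 and -0.90 ± 0.15 SE, adjusted p = 0.00038; A and B alone -0.41, adjusted p = 0.00023 and -1.16, adjusted p = 2.6e-07). Ccnd1, the growth-factor-driven D cyclin, was not called, with 433, 487 and 403 CPM on day 4 and 373, 341 and 405 on day 7 (adjusted p = 0.22; A and B alone -0.31, adjusted p = 0.14). Its relative Ccnd2 rose, most in C, with 7.31, 5.56 and 6.09 CPM on day 4 and 21.9, 19.8 and 48.4 on day 7. Ccnd2 changed by 2.25 ± 0.29 SE, adjusted p = 5.8e-05 on the log2 scale (A and B alone 1.72, adjusted p = 1.4e-06).

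Against day 14, which shares the day 7 libraries, 35 of 40 replication genes and 45 of 46 mitosis genes were lower on day 14 than on day 7, where 7.46% of all genes tested were lower and 5.07% higher. With A and B alone on day 7, the counts were 26 and 45, beside 9.26% lower and 5.77% higher over all genes.

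Most interferon-stimulated genes were higher on day 7, and C as a rule stood lower than A and B. Of 60 genes, 59 were tested; 46 were called higher and 1 lower (Socs1), with a median log2 fold change of 1.62, and 49 and 2 (Cgas and Socs1) with A and B alone, with a median of 1.96. The shares over all genes were 22.0% higher and 15.9% lower, and 28.0% and 21.5% with A and B alone. The day 7 libraries all lay above day 4 for 33 of the 59, beside 21.3% over all genes. A and B did for 53, beside 37.9%. Among the 51 called with A and B alone, C lay on their side of day 4 for 33, within the day 4 range for 15 and on the other side for 3, and its median change was 27.3% of theirs. In limma on TPM, 37 of 56 tested were higher, and 42 with A and B alone. With only days 4 and 7 in the model, 26 were higher, and without day 7 A, 30.

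Ifnb1, the gene of interferon beta, was not tested, with 0 counts in each day 4 library and 2, 3 and 1 on day 7. Receptors were more even: Ifngr1, the receptor chain for type II interferon, had 72.8, 68.5 and 62 CPM on day 4 and 207, 172 and 154 on day 7. Ifnar2, of the type I receptor, had 20.2, 21 and 21.4 CPM on day 4 and 33.5, 33.6 and 30.4 on day 7. In these receptors C moved nearly as far as A and B, with no overlap (log2 fold change 1.39 ± 0.11 SE, adjusted p = 1.3e-06 and 0.64 ± 0.08 SE, adjusted p = 4.3e-05; A and B alone 1.48, adjusted p = 9.3e-09 and 0.68, adjusted p = 2.6e-06). Irf7, the factor that amplifies the response, had 1.71, 1.62 and 3.87 CPM on day 4 and 38, 25.3 and 4.61 on day 7. Irf7 changed by 3.24 ± 0.72 SE, adjusted p = 0.0025 on the log2 scale (A and B alone 3.73, adjusted p = 7e-05). Here C lay just above the highest day 4 library. Socs1, which shuts off the kinases of the receptor, fell in all 3, with 5.57, 6.14 and 5.64 CPM on day 4 and 3.37, 2.48 and 3.34 on day 7. Socs1 changed by -0.92 ± 0.18 SE, adjusted p = 0.0012 on the log2 scale (A and B alone -0.98, adjusted p = 0.00065).

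Among the effectors, some overlapped day 4 through C. Ifit1, which binds foreign RNA ends, had 1.14, 0.877 and 5.42 CPM on day 4 and 60.3, 34.2 and 4.39 on day 7. C lay below the day 4 C library, so the groups overlapped, although the gene was called (log2 fold change 3.75 ± 0.86 SE, adjusted p = 0.0031; A and B alone 4.27, adjusted p = 6.5e-05). Isg15, a ubiquitin-like modifier, had 0.981, 0.975 and 2.18 CPM on day 4 and 16.4, 9.95 and 1.95 on day 7 and overlapped in the same way (log2 fold change 2.78 ± 0.68 SE, adjusted p = 0.0048; A and B alone 3.27, adjusted p = 0.00013). Bst2, the tetherin that holds virions at the surface, had 27.4, 28.1 and 30.5 CPM on day 4 and 93, 68 and 44.3 on day 7, with C above day 4 (log2 fold change 1.26 ± 0.34 SE, adjusted p = 0.0087; A and B alone 1.49, adjusted p = 0.0011). Ifit2 had 9.97, 6.53 and 9.62 CPM on day 4 and 76.4, 57 and 13.6 on day 7. The interferon-induced Rtp4 had 1.33, 0.715 and 1.97 CPM on day 4 and 25.2, 13.4 and 4.65 on day 7. Both rose, with C above day 4 and below A and B (log2 fold change 2.49 ± 0.46 SE, adjusted p = 0.00068 and 3.44 ± 0.65 SE, adjusted p = 0.00085; A and B alone 2.94, adjusted p = 4e-07 and 3.86, adjusted p = 4.1e-05). The secreted Lgals3bp had 14, 10.8 and 15.6 CPM on day 4 and 114, 81.6 and 59.3 on day 7, where C was nearer to A and B than to day 4 (log2 fold change 2.66 ± 0.34 SE, adjusted p = 5.4e-05; A and B alone 2.86, adjusted p = 3.4e-06). Of the MHC class I list, 8 of 12 were higher and 0 lower, and 9 with A and B alone, beside 22.0% and 28.0% higher over all genes. H2-K1, a class I heavy chain, had 261, 254 and 250.3 CPM on day 4 and 405, 339.9 and 241 on day 7, and C lay below day 4 (adjusted p = 0.088; A and B alone 0.55, adjusted p = 0.0028). B2m, the light chain, rose in all 3, most in C, with 136, 109.9 and 151 CPM on day 4 and 270.3, 224 and 306 on day 7. B2m changed by 1.01 ± 0.16 SE, adjusted p = 0.00023 on the log2 scale (A and B alone 0.90, adjusted p = 0.00024). Of the lymphocyte markers, 5 of 6 were at 0 counts in all 6 libraries. The 12 macrophage markers summed to 21.1 to 26.8 CPM on day 4 and 44.0 to 72.9 on day 7, highest in C, against 38.7 to 83.8 on day 0. Only 3 of the 12 were called higher and 1 lower, beside 22.0% and 15.9% over all genes. With A and B alone 3 were higher and 2 lower, beside 28.0% and 21.5%. The part of these markers in the result was not tested. In bulk RNA, fewer cells of a type and less RNA per cell cannot be told apart.

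The interferon-stimulated response element (GAAANNGAA, either strand) was in 25 of 46 interferon genes with a promoter window (54.3%), against 9.76% of all genes with a window. Shown are the called members with a match and the smallest adjusted p, with the element in capitals: Ifi44, a cytoplasmic antiviral protein, at chr3:151749861-151750160 (minus strand), and Cxcl10, a chemokine that draws T cells, at chr5:92348840-92349139 (minus strand).
Ifi44: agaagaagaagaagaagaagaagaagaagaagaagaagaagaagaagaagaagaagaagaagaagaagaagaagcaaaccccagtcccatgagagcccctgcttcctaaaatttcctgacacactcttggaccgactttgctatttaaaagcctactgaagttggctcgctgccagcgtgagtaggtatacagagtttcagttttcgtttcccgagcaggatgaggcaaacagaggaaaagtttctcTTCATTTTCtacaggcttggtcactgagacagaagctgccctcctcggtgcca
Cxcl10: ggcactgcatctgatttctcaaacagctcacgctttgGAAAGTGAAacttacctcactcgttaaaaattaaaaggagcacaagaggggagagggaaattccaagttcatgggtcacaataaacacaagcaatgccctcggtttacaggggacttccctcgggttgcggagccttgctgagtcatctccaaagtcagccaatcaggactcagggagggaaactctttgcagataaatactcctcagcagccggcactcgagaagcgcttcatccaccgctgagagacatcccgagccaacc

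Ifi44 had 0.918, 0.357 and 2.36 CPM on day 4 and 28.6, 17.7 and 3.53 on day 7 (log2 fold change 3.79 ± 0.73 SE, adjusted p = 0.00096; A and B alone 4.27, adjusted p = 1.4e-05), so C was just above day 4. Cxcl10 had 2.53, 1.79 and 1.41 CPM on day 4 and 17.4, 14 and 2.33 on day 7, where C fell between the day 4 libraries (log2 fold change 2.55 ± 0.50 SE, adjusted p = 0.0011; A and B alone 3.03, adjusted p = 1.7e-07).

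The hypoxia list split the day 7 libraries. Most genes of the list were higher in A and B than on day 4, and in C most of those called were within the day 4 range or on its opposite side. Of 54 genes, 53 were tested (Epo was not); 33 were called higher and 1 lower (Slc2a3), with a median log2 fold change of 0.94, and 44 and 3 with A and B alone, with a median of 1.27. Calls over all genes were 22.0% higher and 15.9% lower, and 28.0% and 21.5% with A and B alone. Of the 53, 13 had all 3 day 7 libraries above day 4, beside 21.3% over all genes. A and B lay above day 4 for 45, beside 37.9%. Among the 47 called with A and B alone, C lay on the opposite side of the day 4 range for 27, within it for 6 and on their side for 14. Its median change was -12.1% of that of A and B. With only days 4 and 7 in the model, 9 genes were higher, and without day 7 A, 22. In limma on TPM, 29 of 52 were higher, and 43 with A and B alone.

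Hif1a, the oxygen-labile subunit, had 310.0, 293 and 308 CPM on day 4 and 273, 310.1 and 235 on day 7 and was not called (adjusted p = 0.19; A and B alone -0.06, adjusted p = 0.57). Egln3, a prolyl hydroxylase that marks HIF for decay and is itself a HIF target, had 10.4, 7.8 and 11.6 CPM on day 4 and 177, 164 and 6.11 on day 7. A and B were far above day 4, and C was under all day 4 libraries (log2 fold change 3.54 ± 0.74 SE, adjusted p = 0.0017; A and B alone 4.10, adjusted p = 2.9e-08). Vegfa, the angiogenic growth factor, had 93.1, 83 and 100.1 CPM on day 4 and 634, 615 and 76.9 on day 7. Vegfa changed by 2.26 ± 0.47 SE, adjusted p = 0.0017 on the log2 scale (A and B alone 2.76, adjusted p = 9.5e-10). Bnip3, which sends mitochondria to autophagy, had 66, 52.5 and 88.4 CPM on day 4 and 614, 521 and 51.4 on day 7. Bnip3 changed by 2.52 ± 0.57 SE, adjusted p = 0.003 on the log2 scale (A and B alone 3.04, adjusted p = 1.8e-07). In both, C lay below the lowest day 4 library, so the groups overlapped. Car9, a surface carbonic anhydrase, had 0.538, 0.260 and 0.669 CPM on day 4 and 3.67, 2.02 and 0.600 on day 7, with C inside the day 4 range (log2 fold change 2.12 ± 0.57 SE, adjusted p = 0.0083; A and B alone 2.55, adjusted p = 0.00037).

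Glucose uptake and glycolysis genes separated C from A and B. Of 17 genes, 6 were higher and 1 lower with all libraries, beside 22.0% and 15.9% over all genes. The counts with A and B alone were 14 and 1, beside 28.0% and 21.5% over all genes. In 0 of the 17 did all 3 day 7 libraries lie above day 4, beside 21.3% over all genes. Slc2a1, the GLUT1 transporter, had 417, 425 and 446 CPM on day 4 and 1216, 1416 and 240.2 on day 7. C lay well below day 4, and the call made on counts (log2 fold change 1.16 ± 0.40 SE, adjusted p = 0.032; A and B alone 1.62, adjusted p = 5.5e-07) was not made by limma on TPM (adjusted p = 0.14). Pfkfb3, which makes the allosteric activator of glycolysis, had 35.8, 39.6 and 43 CPM on day 4 and 319, 331 and 30.5 on day 7. Pfkfb3 changed by 2.52 ± 0.55 SE, adjusted p = 0.0024 on the log2 scale (A and B alone 3.04, adjusted p = 4.1e-08). Aldoa, the aldolase, had 1577, 1566 and 1589 CPM on day 4 and 3711, 3202 and 951 on day 7, and was not called with all libraries (adjusted p = 0.075; A and B alone 1.13, adjusted p = 8.8e-07). Slc2a3, the GLUT3 transporter, fell in all 3 and lowest in C, with 20.4, 26 and 27.2 CPM on day 4 and 4.54, 6.13 and 1.39 on day 7. Slc2a3 changed by -2.60 ± 0.44 SE, adjusted p = 0.0004 on the log2 scale (A and B alone -2.20, adjusted p = 8.6e-05).

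Some members of the list were above day 4 in C as well. Those named here have the smallest adjusted p with all libraries, a choice that favours members where C lies with A and B. Plod2, a lysyl hydroxylase, had 69, 57.2 and 53.1 CPM on day 4 and 120.4, 103 and 119.7 on day 7. Loxl2, a lysyl oxidase, had 8.32, 7.15 and 9.23 CPM on day 4 and 28, 30 and 22.8 on day 7. P4ha2, a collagen prolyl hydroxylase, had 21.8, 20.4 and 24.9 CPM on day 4 and 98.1, 92.9 and 44.6 on day 7. Plod1 had 29.8, 26.7 and 27.6 CPM on day 4 and 60.3, 57.3 and 40.1 on day 7. In all of these the groups did not overlap (log2 fold change 0.94 ± 0.17 SE, adjusted p = 0.00052, 1.71 ± 0.18 SE, adjusted p = 1.4e-05, 1.81 ± 0.23 SE, adjusted p = 5.1e-05 and 0.91 ± 0.13 SE, adjusted p = 0.00012; A and B alone 0.90, adjusted p = 0.00053, 1.82, adjusted p = 5e-07, 2.09, adjusted p = 2.2e-08 and 1.07, adjusted p = 2.7e-07). Mxi1, a MYC antagonist and HIF target, had 21.5, 18.3 and 22.7 CPM on day 4 and 71.2, 81.4 and 27.3 on day 7 (log2 fold change 1.53 ± 0.27 SE, adjusted p = 0.00052; A and B alone 1.87, adjusted p = 1.6e-08), where C was only slightly above day 4. The HIF core letters (ACGTG or GCGTG) were in 37 of 42 list promoters (88.1%), against 46.7% of all.

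**Figure D3:**
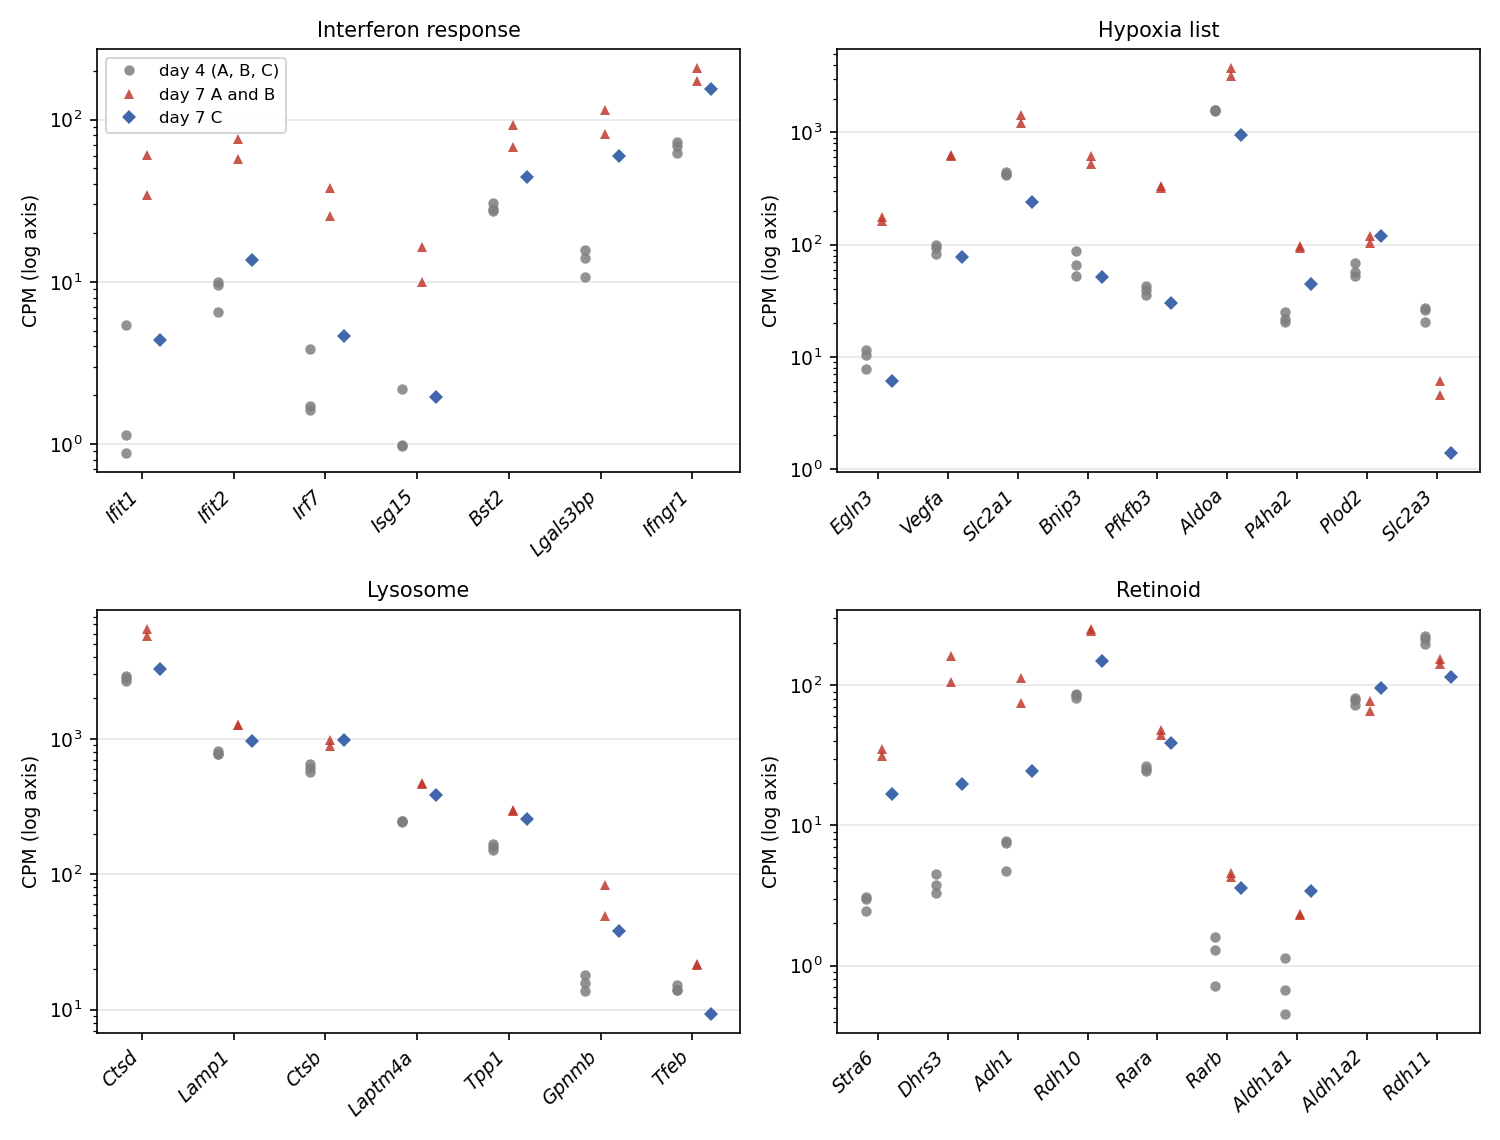
CPM in single libraries (log axis) for interferon, hypoxia, lysosome and retinoid genes: day 4 as grey circles, day 7 A and B as red triangles, day 7 C as blue diamonds. In the hypoxia panel the diamonds of Egln3, Vegfa, Slc2a1, Bnip3, Pfkfb3 and Aldoa lie below all circles, while in the lysosome panel only the diamond of Tfeb does.

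Lysosome genes rose by smaller steps, most of them in all 3 day 7 libraries. Of 77 genes, 59 were called higher and 0 lower, with a median log2 fold change of 0.55, and 65 and 0 with A and B alone, with a median of 0.66. Over all genes 22.0% were called higher and 15.9% lower, and 28.0% and 21.5% with A and B alone. The day 7 libraries all lay above day 4 for 55 and below it for 3 (Ctsz, Tmem192 and Tfe3), beside 21.3% each over all genes. Among the 65 called with A and B alone, C lay on their side for 53, and its median change was 44.1% of theirs. In limma on TPM, 61 were higher, and 66 with A and B alone. With only days 4 and 7 in the model, 43 were higher. By role, 25 of 26 hydrolases other than proteases were higher, 11 of 16 proton pump subunits, 7 of 11 proteases, 13 of 16 membrane proteins and cofactors, and 3 of 8 factors and regulators. With A and B alone these were 25, 14, 8, 12 and 6.

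Ctsd, the aspartic protease cathepsin D, had 2929.8, 2839.6 and 2671 CPM on day 4 and 6484, 5759 and 3285 on day 7. C rose by far less than A and B but lay above all day 4 libraries (log2 fold change 0.88 ± 0.17 SE, adjusted p = 0.0011; A and B alone 1.12, adjusted p = 4e-08). Ctsb, the cysteine protease cathepsin B, had 657, 574 and 611 CPM on day 4 and 975, 883 and 978 on day 7, with C as high as A (log2 fold change 0.62 ± 0.10 SE, adjusted p = 0.00026; A and B alone 0.60, adjusted p = 0.00015). Lamp1, the chief membrane glycoprotein, had 809, 775 and 769 CPM on day 4 and 1264, 1258 and 969 on day 7. Lamp1 changed by 0.57 ± 0.10 SE, adjusted p = 0.00048 on the log2 scale (A and B alone 0.69, adjusted p = 1.7e-06). Tpp1, the tripeptidyl peptidase, had 167, 150.3 and 159 CPM on day 4 and 295, 298 and 255 on day 7. Laptm4a, a membrane protein, had 249, 244 and 247 CPM on day 4 and 465, 469 and 383 on day 7. Atp6v1g1, of the proton pump, had 188, 196 and 179.8 CPM on day 4 and 302, 292 and 269 on day 7. For these, C lay nearer to A and B than to day 4 (log2 fold change 0.83 ± 0.08 SE, adjusted p = 5e-06, 0.83 ± 0.08 SE, adjusted p = 5e-06 and 0.61 ± 0.07 SE, adjusted p = 2e-05; A and B alone 0.90, adjusted p = 4.7e-08, 0.92, adjusted p = 7.8e-09 and 0.66, adjusted p = 6.3e-07). Gpnmb, a glycoprotein of lysosomal stress, had 15.8, 13.7 and 18.1 CPM on day 4 and 49, 82.9 and 37.9 on day 7. Gpnmb changed by 1.83 ± 0.25 SE, adjusted p = 7.3e-05 on the log2 scale (A and B alone 2.05, adjusted p = 5.2e-07). Tfeb, the master factor, was above day 4 in A and B and below it in C, at 15.3, 14 and 13.9 CPM on day 4 and 21.8, 21.4 and 9.34 on day 7 (adjusted p = 0.33; A and B alone 0.58, adjusted p = 0.00026). The CLEAR letters TCACGTGA were in 8 of 62 list promoters (12.9%), against 1.12% of all: Atp6v0d1, Atp6v0e, Atp6v1a, Ctsa, Ctsd, Gla, Mcoln1 and Cln3. Of the autophagy list, 9 of 14 were higher and 0 lower, and 11 with A and B alone, beside 22.0% and 28.0% higher over all genes. Map1lc3a, an LC3 protein of the autophagosome, had 27.1, 26.6 and 25.4 CPM on day 4 and 79.8, 80.9 and 50.2 on day 7. Map1lc3a changed by 1.42 ± 0.14 SE, adjusted p = 9.9e-06 on the log2 scale (A and B alone 1.61, adjusted p = 2.2e-09).

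Vitamin A genes changed in a few large steps. Of 35 genes, 32 were tested (Rbp2, Crabp1 and Cyp26c1 were not). Of these, 14 were called higher and 2 lower, beside 22.0% and 15.9% over all genes. The counts with A and B alone were 13 and 4, beside 28.0% and 21.5% over all genes. The fitted median log2 fold change was 0.27, and 0.34 with A and B alone; it was 0.56 with the 3 members at 3 counts or fewer on both days left out and Cyp26b1, at 0 on day 4, set to its bound. All 3 day 7 libraries lay above day 4 for 12 and below for 2 (Rdh11 and Rdh5), beside 21.3% each over all genes. Among the 17 called with A and B alone, C lay on their side for 14, with a median change of 52.9% of theirs. With only days 4 and 7 in the model, 8 were higher. In limma on TPM, 13 of 30 were higher, and 12 with A and B alone.

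Uptake: Stra6, the membrane receptor for retinol bound to its carrier, had 2.47, 3.09 and 2.99 CPM on day 4 and 31.4, 35.1 and 16.8 on day 7, with no overlap (log2 fold change 3.28 ± 0.30 SE, adjusted p = 4.5e-06; A and B alone 3.54, adjusted p = 1.2e-08). Oxidation of retinol to retinal falls to Rdh10, the main dehydrogenase, with 84.6, 87.2 and 81.4 CPM on day 4 and 252, 245 and 149 on day 7, and to Adh1, an alcohol dehydrogenase, with 7.72, 4.74 and 7.5 CPM on day 4 and 112, 75.1 and 24.3 on day 7. Both rose in all 3 libraries (log2 fold change 1.35 ± 0.15 SE, adjusted p = 1.9e-05 and 3.41 ± 0.45 SE, adjusted p = 7e-05; A and B alone 1.56, adjusted p = 2.9e-09 and 3.82, adjusted p = 1.1e-07). On the per-length TPM scale, Dhrs3, which runs this step backwards, stood at 3.4, 3.3 and 4.26 TPM on day 4 and 170.3, 112 and 22 on day 7, and Rdh10 at 38.8, 38.2 and 36.6 TPM on day 4 and 116, 116 and 73.5 on day 7. Rdh11, another retinal reductase, fell, with 224, 212 and 197 CPM on day 4 and 153, 142 and 115 on day 7 (log2 fold change -0.63 ± 0.11 SE, adjusted p = 0.00056; A and B alone -0.51, adjusted p = 0.00053), and was lower on day 14 than on day 7 (mean 84.9 CPM, log2 fold change -0.69, adjusted p = 0.0015; A and B alone on day 7 -0.80, adjusted p = 7e-05). For the last step, to retinoic acid, Aldh1a2 had 78.4, 81 and 72.3 CPM on day 4 and 77.3, 65.2 and 96 on day 7 and was not called (adjusted p = 0.89; A and B alone -0.12, adjusted p = 0.61). Aldh1a1, which does the same step, rose, highest in C, with 1.14, 0.455 and 0.669 CPM on day 4 and 2.28, 2.34 and 3.41 on day 7. Aldh1a1 changed by 1.81 ± 0.32 SE, adjusted p = 0.00047 on the log2 scale (A and B alone 1.60, adjusted p = 0.00068). Of the 5 genes of retinoic acid synthesis tested, 2 were called higher and 0 lower, beside 22.0% and 15.9% over all genes. The counts with A and B alone were 2 and 1, beside 28.0% and 21.5%. For 1 of these 3, replicate C lay on the opposite side of day 4.

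Of the 6 retinoid receptors 3 were higher, also with A and B alone, and of the retinoid-responsive Rarres1 and Rarres2 neither was called. Rara, a receptor, had 24.5, 26.4 and 25.2 CPM on day 4 and 47.7, 44 and 38.5 on day 7. Rara changed by 0.78 ± 0.09 SE, adjusted p = 1.9e-05 on the log2 scale (A and B alone 0.86, adjusted p = 2e-07). Rarb, the receptor gene that retinoic acid induces, had 1.61, 0.715 and 1.3 CPM on day 4 and 4.6, 4.32 and 3.6 on day 7. Rarb changed by 1.78 ± 0.31 SE, adjusted p = 0.00043 on the log2 scale (A and B alone 1.88, adjusted p = 0.00012). Cyp26a1, the hydroxylase that clears retinoic acid and is induced by it, had 0.127, 0.0975 and 0.141 CPM on day 4 and 2.7, 3.08 and 0.488 on day 7, with C above day 4 but short of A and B (log2 fold change 4.07 ± 0.58 SE, adjusted p = 0.00012; A and B alone 4.53, adjusted p = 3.5e-08). Its relative Cyp26b1 had 0 counts in each day 4 library and 4, 2 and 8 on day 7. Both were called higher with all libraries and with A and B alone, Cyp26b1 on these few counts. Of the genes with a promoter window, 31 of 27025 (0.115%) held a DR5 retinoic acid response element, a direct repeat spaced by 5 bases, and Rarb and Cyp26a1 were the 2 of 29 retinoid genes (6.90%) that did. Their windows are shown with the element in capitals: Cyp26a1 at chr19:37697558-37697857 (plus strand), and Rarb at chr14:16575427-16575726 (minus strand).
Cyp26a1: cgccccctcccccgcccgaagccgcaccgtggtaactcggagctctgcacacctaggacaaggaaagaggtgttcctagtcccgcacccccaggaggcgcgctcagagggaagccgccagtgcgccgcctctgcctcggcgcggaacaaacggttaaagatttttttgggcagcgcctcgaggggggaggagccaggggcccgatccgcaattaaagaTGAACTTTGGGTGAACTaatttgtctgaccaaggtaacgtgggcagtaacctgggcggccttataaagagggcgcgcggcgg
Rarb: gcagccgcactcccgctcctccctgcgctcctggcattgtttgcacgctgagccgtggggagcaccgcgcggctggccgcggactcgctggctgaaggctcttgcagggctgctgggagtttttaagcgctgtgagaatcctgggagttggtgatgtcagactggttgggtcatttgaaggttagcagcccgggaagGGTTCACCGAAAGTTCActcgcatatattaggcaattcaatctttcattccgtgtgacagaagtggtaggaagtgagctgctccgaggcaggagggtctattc

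The lists differed in how far replicate C had moved. For cholesterol and fatty acid synthesis, C had gone past A and B, at a median of 144% of their change. In this list 22 of 31 genes were lower and 0 higher (20 and 0 with A and B alone). The share lower over all genes was 15.9%, and 21.5% with A and B alone. Idi1, an isomerase of the sterol pathway, had 679.9, 701 and 607 CPM on day 4 and 307, 278 and 258 on day 7. Lss, the lanosterol synthase, had 237, 236 and 205 CPM on day 4 and 114, 99.3 and 82.3 on day 7; both fell, lowest in C (log2 fold change -1.24 ± 0.13 SE, adjusted p = 1.6e-05 and -1.20 ± 0.10 SE, adjusted p = 2.8e-06; A and B alone -1.18, adjusted p = 5.7e-06 and -1.08, adjusted p = 7.2e-08). For targets of the oxidant sensor NRF2, where 12 of 14 were lower and 1 higher (Ephx1), and 12 and 1 of 15 with A and B alone, the median was 99.1%. Nqo1, a quinone reductase, had 210.1, 191 and 174 CPM on day 4 and 45.6, 57.9 and 47.8 on day 7. Gclm, of glutathione synthesis, had 769, 765 and 729 CPM on day 4 and 303, 296 and 302 on day 7. C lay with A and B in both (log2 fold change -1.92 ± 0.16 SE, adjusted p = 2.1e-06 and -1.33 ± 0.13 SE, adjusted p = 6.4e-06; A and B alone -1.89, adjusted p = 3.9e-07 and -1.33, adjusted p = 1.1e-06). Retinoid (52.9%) and lysosome (44.1%) genes lay in between, then interferon (27.3%), mitosis (20.6%) and DNA replication (18.3%), and hypoxia genes at -12.1%. Among the small marker lists, endothelial (-19.6%, 7 genes called) and podocyte markers (-28.4%, 4 genes called) lay lower still. These medians are over the members called with A and B alone and are a description, with no test between lists.

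**Figure D4:**
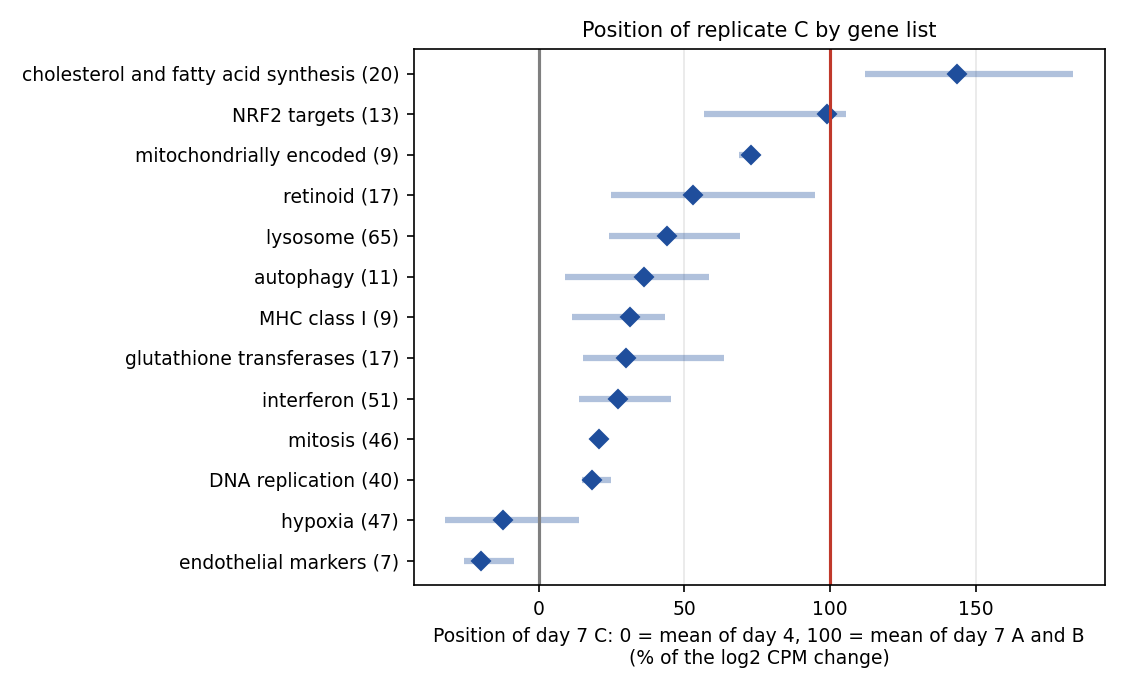
Median position of day 7 replicate C (diamond) with the quartiles (bar) over the members of each list called with A and B alone, whose number is in brackets: 0% is the mean of day 4 and 100% that of day 7 A and B, in log2 CPM. Endothelial markers lie at -19.6%, hypoxia genes at -12.1% and cholesterol and fatty acid genes at 144%.

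Glutathione transferases, the family of Gsta1, parted by class. All 4 alpha class genes of the list fell, and 12 of the 20 rose, all of them mu, theta, kappa or microsomal. With A and B alone 4 fell and 13 rose. The shares over all genes were 15.9% lower and 22.0% higher, and 21.5% and 28.0% with A and B alone. Gsta2 had 90.6, 71.1 and 81.6 CPM on day 4 and 13.4, 13.4 and 25.7 on day 7 (log2 fold change -2.21 ± 0.24 SE, adjusted p = 1.7e-05; A and B alone -2.60, adjusted p = 6.3e-08); reads of near-identical copies such as Gsta1 and Gsta2 could be split in the counting. Mgst1, a microsomal member, had 41.8, 36.9 and 45.1 CPM on day 4 and 201, 199.8 and 81.9 on day 7. Mgst1 changed by 1.96 ± 0.24 SE, adjusted p = 4e-05 on the log2 scale (A and B alone 2.28, adjusted p = 1.2e-09). Gstm1 had 94.3, 82.7 and 79 CPM on day 4 and 423, 387 and 113 on day 7. Gstm1 changed by 1.85 ± 0.33 SE, adjusted p = 0.00052 on the log2 scale (A and B alone 2.25, adjusted p = 1.1e-08). Around Igfbp2, 5 of 13 genes of the IGF axis were higher and 1 lower, beside 22.0% and 15.9% over all genes. The counts with A and B alone were 7 and 2 of 14, beside 28.0% and 21.5% over all genes. Igfbp7 rose in all 3 libraries, with 398, 379 and 338 CPM on day 4 and 1358, 1139.6 and 964 on day 7. Igfbp7 changed by 1.63 ± 0.16 SE, adjusted p = 9.9e-06 on the log2 scale (A and B alone 1.75, adjusted p = 2.3e-07). Igfbp5 fell, with 117, 85 and 60.9 CPM on day 4 and 24.4, 23.1 and 60.6 on day 7, where C lay just under the lowest of day 4 (log2 fold change -1.29 ± 0.38 SE, adjusted p = 0.015; A and B alone -1.88, adjusted p = 0.00028).

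**Figure D5:**
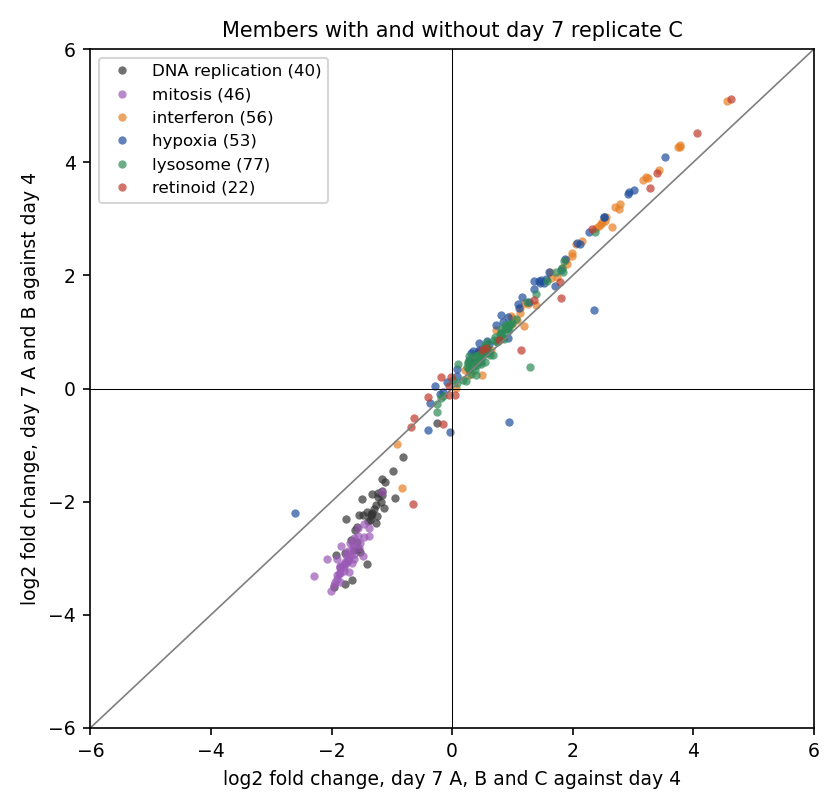
Log2 fold change of day 7 against day 4 for members with a mean of at least 1 CPM on either day, with all 3 day 7 libraries (horizontal axis) and with A and B alone (vertical axis); the diagonal marks equal values. Mitosis genes other than Pttg1 lie below the diagonal (median -1.73 against -3.01) and lysosome genes close to it (0.55 against 0.66).

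Replicate C also differed in some genes of injury and of other cell types. Of 27 tubule injury genes, 8 were higher and 6 lower, not far from the 22.0% and 15.9% over all genes. With A and B alone 7 were higher and 13 lower, beside 28.0% and 21.5% over all genes. Among these 20, C lay on the side of A and B for 13 and on the opposite side for 6, with a median change of 36.0% of theirs. Havcr1, the injury marker KIM-1, had 587, 419 and 631 CPM on day 4 and 247, 137 and 1256 on day 7: A and B fell, and C was at the highest level of the 6 (log2 fold change 0.00 ± 0.57 SE, adjusted p = 1; A and B alone -1.51, adjusted p = 0.0026). Vim, the intermediate filament of dedifferentiated cells, had 189.9, 128 and 166 CPM on day 4 and 50.3, 35.1 and 455 on day 7, in the same pattern (adjusted p = 0.87; A and B alone -1.91, adjusted p = 1.1e-05). Fibroblast and mural markers, 12 genes with Lum at 0 in all 6 libraries, summed to 47.2 to 76.4 CPM on day 4, 145 and 140 in day 7 A and B, and 285 in C. Endothelial markers, 9 genes, summed to 45.2 to 55.3 CPM on day 4, 28.9 and 28.8 in A and B, and 57 in C. On day 0 these sums were 115 to 138 and 190 to 231 CPM. Of 11 fibroblast and mural markers tested, 6 were called higher and 1 lower, and 4 and 1 with A and B alone. For the 9 endothelial markers the counts were 0 and 1, and 0 and 7 with A and B alone. The shares over all genes were 22.0% higher and 15.9% lower, and 28.0% and 21.5% with A and B alone. Acta2, the smooth muscle actin, had 8.8, 12.5 and 5.49 CPM on day 4 and 15.3, 16.2 and 89.7 on day 7. Acta2 changed by 2.17 ± 0.59 SE, adjusted p = 0.0089 on the log2 scale (A and B alone 0.81, adjusted p = 0.089). The 6 podocyte markers summed to 179 to 264 CPM on day 4, 160 and 155 in A and B, and 317 in C, against 413.2 to 530.5 on day 0. Among these 6, 1 was called higher and 0 lower, and 1 and 3 with A and B alone, beside the same shares over all genes. The sum of the 13 distal nephron markers was instead lowest in C, with 55.3 to 68.9 CPM on day 4, 269 and 295 in A and B, and 42.2 in C. All of these were far below the 5919 to 7817 CPM of day 0. Of these 13, 4 were called higher and 1 lower, beside 22.0% and 15.9% over all genes. With A and B alone 5 were higher and 1 lower, beside 28.0% and 21.5%. Scnn1b and Scnn1g held much of the sum in A and B. The sodium channel subunits Scnn1b (8.16, 6.04 and 6.45 CPM on day 4 and 64.7, 65.7 and 7.65 on day 7) and Scnn1g (8.35, 8.55 and 7.26 CPM on day 4 and 71, 71.9 and 6.08 on day 7) were called (log2 fold change 2.74 ± 0.52 SE, adjusted p = 0.00091 and 2.62 ± 0.58 SE, adjusted p = 0.0025; A and B alone 3.24, adjusted p = 2.2e-08 and 3.15, adjusted p = 1.1e-07), though the groups overlapped through C. The part of these cell types in these results was not tested.

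Over all genes, the largest changes that held with and without C, without overlap, reached beyond these lists. Besides Igfbp2, Dhrs3 and Ifi44, the largest rises were Tgtp1, a T-cell-specific GTPase gene induced by interferon, with 0.316, 0.292 and 0.669 CPM on day 4 and 31.8, 16.5 and 1.39 on day 7, Megf6 with 3.35, 4.39 and 3.63 CPM on day 4 and 116, 76.4 and 17 on day 7, and Trpv6, a calcium channel, with 1.46, 2.21 and 2.36 CPM on day 4 and 38, 48.5 and 3.08 on day 7. In all of these, C lay between the groups (log2 fold change 5.29 ± 0.82 SE, adjusted p = 0.0002, 4.20 ± 0.51 SE, adjusted p = 3.6e-05 and 3.89 ± 0.67 SE, adjusted p = 0.00044; A and B alone 5.83, adjusted p = 2.6e-08, 4.66, adjusted p = 1.4e-09 and 4.43, adjusted p = 1.2e-08). Col1a1, the collagen I chain, had 3.2, 3.44 and 2.01 CPM on day 4 and 47.5, 41.3 and 22.1 on day 7. Tgfb2, a growth factor of scarring, had 4.08, 6.08 and 5.21 CPM on day 4 and 79.4, 80.1 and 15.1 on day 7 (log2 fold change 3.68 ± 0.50 SE, adjusted p = 7.8e-05 and 3.51 ± 0.44 SE, adjusted p = 4.4e-05; A and B alone 3.94, adjusted p = 1.3e-06 and 3.96, adjusted p = 2.3e-10). The rest of the 10 were Glb1l2 and Lrrn1 (log2 fold change 3.57 ± 0.54 SE, adjusted p = 0.00018 and 3.57 ± 0.22 SE, adjusted p = 1.9e-07; A and B alone 4.07, adjusted p = 2.5e-09 and 3.76, adjusted p = 3.2e-10). Besides Gsta1, the largest falls included the placental hormone relatives Prl2c2 with 416, 231 and 269.6 CPM on day 4 and 13.1, 2.44 and 36.5 on day 7 and Prl2c3 with 344, 259 and 281 CPM on day 4 and 16.4, 4.85 and 55.9 on day 7, near-identical copies whose reads could be split (log2 fold change -4.14 ± 0.72 SE, adjusted p = 0.00064 and -3.52 ± 0.71 SE, adjusted p = 0.0018; A and B alone -5.27, adjusted p = 1.6e-05 and -4.78, adjusted p = 1.8e-05). Ccl20, a chemokine, had 399, 555 and 559 CPM on day 4 and 28.9, 38.8 and 56.6 on day 7. Ccl20 changed by -3.61 ± 0.39 SE, adjusted p = 1.5e-05 on the log2 scale (A and B alone -3.90, adjusted p = 1.2e-06). Krt4, a keratin, Sprr2a2, of the cornified envelope, and Gsdma, a gasdermin, fell too (log2 fold change -3.75 ± 0.66 SE, adjusted p = 0.0007, -3.18 ± 0.32 SE, adjusted p = 9.9e-06 and -2.88 ± 0.44 SE, adjusted p = 0.00028; A and B alone -4.38, adjusted p = 0.00011, -3.07, adjusted p = 1.4e-06 and -3.76, adjusted p = 2.2e-07). Cpa4, Slc16a6 and S100a7a made up the 10 (log2 fold change -3.47 ± 0.71 SE, adjusted p = 0.002, -2.86 ± 0.26 SE, adjusted p = 5e-06 and -2.65 ± 0.24 SE, adjusted p = 3.9e-06; A and B alone -5.75, adjusted p = 3.5e-07, -3.20, adjusted p = 8.3e-08 and -2.96, adjusted p = 1.3e-08).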

How the data were processed

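PolyA RNA-seq libraries were grouped by day and replicate as the labels give them. The authors deposited estimated counts per gene, whole numbers, and TPM per gene; the submitters' processing notes name RSEM 1.3.3, STAR 2.7.8a, FastQC 0.11.8, cutadapt 2.3 and GRCm38. No annotation release or strandedness is given in the sources used here, and overlapping, antisense and near-identical genes can share reads. Of 55426 entries, 5 reporter transgenes with 0 counts were left out. Depth ran from 23799559 to 32001426 counts in the 6 libraries compared.

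Day 7 was tested against day 4 by the quasi-likelihood F test of edgeR 4.0.16 (R 4.3.3) on the deposited counts, with TMM scaling and filterByExpr, in 1 model of 6 day means over all 18 libraries, with calls made where the Benjamini-Hochberg adjusted p was under 0.05. Genes were kept if counted on any day, so the genes tested include some near 0 on days 4 and 7. A standard error (SE) is the log2 fold change divided by √F. "A and B alone" leaves out day 7 replicate C. As a check, limma-trend (limma 3.58.1) was run on log2(TPM + 1) for genes whose mean TPM reached 0.5; its fold changes understate low genes. The DESeq2 Wald test (DESeq2 1.42.0) was an alternative. The position of replicate C used log2(CPM + 0.1).

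The members and the 29 gene lists (703 genes) were chosen with earlier results of these data known, so their counts are descriptions. Named genes are Rrm2, Gsta1, Dhrs3 and Igfbp2, 36 further genes whatever their values, per list up to 5 members in the main direction and 2 in the other, by adjusted p, and the 10 largest rises and falls at 10 CPM or more, called with and without C, without overlap and with a gene symbol rather than a clone or model name. Some genes so named are not reported here. Aldoa, Pfkfb3, Ccne1, Vim, Cyp26a1, Scnn1b, Scnn1g and members singled out beside small counts were chosen after their values were seen, as were Cdca8 and Cxcl10, from their promoters. Promoter windows came from RefSeq (GRCm38.p6), matched by symbol for 531 of 703 genes, and gene positions from GENCODE vM21.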

Additional observations from a re-analysis of the deposited data

How the results depend on the processing

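The 17 alternatives comprised 2 other scalings, no filter, a replicate block by letter, a model of days 4 and 7 alone (with and without day 7 C), the DESeq2 Wald test, 3 limma fits on TPM, each of the 6 libraries left out in turn, and limma on TPM with A and B alone, which was added after seeing the data, as was the day 14 comparison without day 7 C. No scaling moved the median of all genes by over 0.1. With only the libraries of days 4 and 7, counts dropped: 1918 genes higher and 1691 lower, 5 DNA replication and 2 mitosis genes lower, and 26 interferon, 9 hypoxia and 8 retinoid genes higher. The same model without day 7 C gave 5114 genes lower and 4 hypoxia genes lower. limma on TPM without a filter gave 29 interferon genes higher. The count of hypoxia genes lower was 1, and 2 with the DESeq2 Wald test and with limma on TPM with A and B alone. Leaving out 1 library at a time gave 2860 to 5387 genes higher, 2130 to 4148 lower, 25 to 40 DNA replication and 22 to 45 mitosis genes lower, 30 to 49 interferon and 22 to 44 hypoxia genes higher, 1 to 3 hypoxia genes lower, 51 to 65 lysosome and 11 to 14 retinoid genes higher. Deviations from the day mean in same-letter libraries of days 4 and 7 had correlations of 0.0360, 0.00636 and -0.0364. Replicate C stands apart on day 7 and shapes these deviations, so they cannot decide whether the letters pair the libraries. With the replicate block, 4070 genes were higher and 3123 lower, with 2 hypoxia genes lower. Of 129 named genes tested, 86 kept their side of the threshold under every alternative. With only the libraries of days 4 and 7, 26 calls were lost, without day 7 A 11 and without day 7 B 7. Signs turned for Havcr1, Hnf4a and Vim, which were not called with all libraries: leaving out 1 library gave log2 fold changes of -1.51 to 0.461, -1.15 to 0.596 and -1.91 to 0.648, the lowest without day 7 C and the highest without day 7 B. They were -1.55, -1.20 and -1.95 with days 4 and 7 only and A and B alone, and -1.46 (Havcr1) and -1.82 (Vim) in limma on TPM with A and B alone. The cause was not tested. Depth limits the low genes: Cyp26b1 had 0 counts on day 4 and 4, 2 and 8 on day 7, and Ifnb1 had 0 and 2, 3 and 1.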
